A study of Mus musculus with 12 samples.

Results

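Tetraspanins are small membrane proteins that cross the membrane 4 times, and 10 of their genes were followed here: Cd63, Cd9, Cd37, Cd53, Cd81, Cd82, Cd151, Tspan3, Tspan13 and Tspan31. Every array probe annotated to these symbols was taken, 17 probes in all. The genes belong to 19057 with a named probe, of which 10050 passed the detection filter and were tested. Of the 10 tetraspanins, 9 passed. The single probe of Tspan13 was above the detection limit on 2 of 12 arrays, and this gene was not tested. Cd63 was chosen by its large difference between anti-IgM and untreated cells with wild-type E12, in these same arrays. The other 9 genes were chosen by family name with the results of these arrays known. For all 10 genes the anti-IgM comparisons are therefore descriptions with no p, and Cd63 has none in any comparison. Where such a value is called past the threshold, its adjusted p was under 0.05. This only sorts the values and is not a test of these genes.

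Tetraspanins gather other membrane proteins, such as integrins, into patches of the cell surface called tetraspanin-enriched microdomains. In B cells, Cd81 sits in a surface complex with complement receptor 2. Cd63 resides mainly in late endosomes and lysosomes, reaches the surface when these fuse with the plasma membrane, and is widely used as a marker of exosomes.

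The cells were splenic B cells of C57BL/6 mice aged 8 weeks, all with 1 E2A allele deleted. They were activated by CD40L at 200 ng/ml with IL-4 at 5 ng/ml for 14 h, and infected in 2 rounds of 12 h with LPS at 200 ng/ml. The virus carried GFP and either form of E12, a transcription factor encoded by Tcf3 (E2A), and cells were sorted for GFP after a further 22 h. There were 4 groups of 3 Illumina bead arrays: cells with mutant E12, given anti-IgM or left untreated, and cells with wild-type E12, given anti-IgM or left untreated. Anti-IgM was a goat F(ab')2 antibody at 2.5 µg/ml for 3 h, which crosslinks the antigen receptor. The title of the series calls the mutant resistant to calmodulin, a calcium sensor. E12 came from a retrovirus in every group, on top of the remaining E2A allele, so none of the groups shows uninfected cells. Whether the 3 arrays of a group came from separate mice is not stated, so p-values measure the spread between these arrays.

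Deposited medians were 6.40 on mutant and 6.93 to 6.94 on wild-type arrays. From these values it was read that the arrays of the E12 forms had been normalized separately, which the sample titles do not state. A comparison of the forms and such separate processing cannot be told apart. Detection limits were 15.63 to 15.65 intensity units on mutant arrays and 12.91 to 12.92 on wild-type arrays. Tcf3 was higher with mutant E12, by 1.55 ± 0.35 (SE) on the log2 scale with anti-IgM (limma adjusted p = 0.0025) and by 1.68 ± 0.35 untreated (adjusted p = 0.0015). Among the B cell markers, Blk, Cd22, Cd79b and Ms4a1 were above the limit on all 12 arrays, Pax5 was on 0, and Cd79a had no named probe. Their summed intensity was 15255 to 19491 in mutant cells with anti-IgM, 16671 to 20008 in untreated mutant cells, 23366 to 24862 in wild-type cells with anti-IgM and 31349 to 39660 in untreated wild-type cells. The 5 tested plasma cell markers of 6 listed summed to 13528 to 20206 with mutant E12 and 8313 to 10647 with wild-type E12, mostly from Xbp1. Derl3 had 301 to 607 with mutant and 30.1 to 71.6 with wild-type E12, and Sdc1 had 35.1 to 83.0 and 3.63 to 21.6. Xbp1 and Jchain were also higher with mutant E12 without overlap, and Prdm1 had a higher median with overlap. Of 9 macrophage markers listed 5 were tested. Adgre1 was above the limit on 0 of 6 mutant and 6 of 6 wild-type arrays, Lyz1 had intensities of 37.9 to 111 with mutant and 233 to 1348 with wild-type E12, and Lyz2 had 8.66 to 28.1 with mutant and 74.5 to 401 with wild-type E12. Mpeg1 ran the other way, at 285 to 589 with mutant and 57.7 to 475 with wild-type E12, while Csf1r was above the limit on 2 arrays in all and Fcgr1 on 0. The 5 summed to 2663 on replicate 1 of untreated wild-type E12, against 397 to 853 in the other groups. That array also had the lowest mean correlation with its own group across genes, 0.979, but replicate 1 of mutant E12 with anti-IgM (0.980) and replicate 3 of untreated mutant E12 (0.981) were close to it. Of the 6 T cell markers with a probe, Cd3e, Cd3g, Cd8a and Cd4 were above the limit on 0 arrays, Cd3d on 2 and Thy1 on 12, with 385 to 842 in mutant and 170 to 450 in wild-type cells. Of 6 platelet markers with a probe 3 were on 0 arrays, among them Pf4 and Ppbp, and Gp9 was on 6. Of 7 mast cell and basophil markers 3 were on 0 arrays, among them Cpa3 and Ms4a2, and Kit was on 10. Of 4 NK cell markers Ncr1 and Klrd1 were on 0 arrays and Prf1 on 12, with 683 to 2588 with mutant E12, 1467 to 1977 in wild-type cells with anti-IgM and 3812 to 5835 in untreated wild-type cells. Of 5 dendritic cell markers 3 were tested, and Siglech had 4.91 to 26.5 with mutant and 38.5 to 153 with wild-type E12. Xcr1 ran the other way, at 11.9 to 35.9 with mutant and 1.47 to 13.9 with wild-type E12. Zbtb46 overlapped more widely, at 13.7 to 52.6 and 15.3 to 33.3. The part of these shifts in the results was not tested.

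E12 is known to bind DNA at E-boxes, the letters CANNTG, and the windows from 250 bases before to 50 bases after the transcript start (RefSeq, GRCm38.p6) are shown for 3 genes. They are Cd63 and Cd53, which had the largest differences to lower levels with mutant E12 among the 9 genes, and Cd9, which had the largest to a higher level in untreated cells. Capitals mark each E-box.
Cd63, chr10:128909095-128909394, plus strand: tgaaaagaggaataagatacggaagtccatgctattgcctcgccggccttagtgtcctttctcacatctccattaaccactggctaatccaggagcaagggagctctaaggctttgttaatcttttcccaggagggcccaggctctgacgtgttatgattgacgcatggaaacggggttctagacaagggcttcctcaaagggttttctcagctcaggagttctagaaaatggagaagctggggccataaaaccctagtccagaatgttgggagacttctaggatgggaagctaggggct
Cd9, chr6:125494711-125495010, minus strand: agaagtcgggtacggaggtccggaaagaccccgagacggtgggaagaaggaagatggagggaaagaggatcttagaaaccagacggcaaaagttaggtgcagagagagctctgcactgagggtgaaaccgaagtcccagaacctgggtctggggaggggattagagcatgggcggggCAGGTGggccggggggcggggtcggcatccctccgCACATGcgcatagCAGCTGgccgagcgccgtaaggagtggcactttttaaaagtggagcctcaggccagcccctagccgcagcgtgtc
Cd53, chr3:106790100-106790399, minus strand: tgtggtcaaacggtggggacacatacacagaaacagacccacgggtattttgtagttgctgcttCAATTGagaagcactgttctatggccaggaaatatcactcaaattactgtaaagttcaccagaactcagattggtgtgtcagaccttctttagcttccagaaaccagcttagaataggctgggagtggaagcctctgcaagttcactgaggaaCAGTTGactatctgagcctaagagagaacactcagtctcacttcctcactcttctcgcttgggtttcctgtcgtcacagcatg
The Cd63 window held 0 E-boxes, the Cd9 window 3 and the Cd53 window 2. Over all 10 genes there were 14 windows, 1 each for 8 genes and several each for Cd82 and Cd151. Of these windows 10 held an E-box, against 72.3% of all 32851 promoter windows. The form CACCTG, 1 of the E-boxes and read on both strands, lay in 5 of the 14 windows, against 20.2% of all windows. It lay once in that of Cd9 and in more than 1 window of Cd82, so the 5 are not separate genes. The AP-1 motif TGANTCA lay in 0 of the 14, against 7.81% of all. These matches describe letters in these windows and say nothing about binding.

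On its brightest probe, Cd63 had a separate level in each of the 4 groups. The intensity of its brightest probe was 119, 97.35 and 99.2 units in mutant cells with anti-IgM, and 26.1, 20.6 and 8.75 in untreated mutant cells. It was 2719, 2949 and 3053 in wild-type cells with anti-IgM, and 231, 458 and 450.3 in untreated wild-type cells. The order was therefore wild-type with anti-IgM, wild-type untreated, mutant with anti-IgM and mutant untreated, and no neighbouring groups in it overlapped. Of the 3 untreated mutant arrays, 2 were above the detection limit. On the log2(intensity + 50) scale used for all fits, the difference of anti-IgM from untreated was 1.19 ± 0.19 (SE, 3 arrays per group) with mutant E12 and 2.83 ± 0.19 with wild-type E12. The response with mutant E12 minus that with wild-type E12 was -1.65 ± 0.27. Mutant cells differed from wild-type cells by -4.25 ± 0.19 with anti-IgM and by -2.61 ± 0.19 untreated. These are arrays of whole sorted populations, in which fewer cells with Cd63 RNA and less of it per cell cannot be told apart.

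The dimmer Cd63 probes were higher with anti-IgM in both forms. The second gave a log2 difference of 0.68 ± 0.17 with mutant E12 and 2.14 ± 0.17 with wild-type E12, and the third 0.45 ± 0.19 and 2.14 ± 0.19. In a fit of all probes that passed the filter, these wild-type values were past the threshold and the mutant values were not. In intensity, the second probe averaged 58.4 ± 10.5 in mutant cells with anti-IgM, 17.7 ± 9.36 in untreated mutant cells, 575.7 ± 89.1 in wild-type cells with anti-IgM and 93.4 ± 32.3 in untreated wild-type cells (SD, n = 3 each). The third averaged 52.4 ± 12.0, 25.3 ± 11.2, 492.4 ± 50.9 and 77.3 ± 41.0 in the same groups. On all 3 probes the mutant form was below the wild-type form with anti-IgM and without it, and those groups did not overlap. On both dimmer probes, mutant cells with anti-IgM did overlap untreated wild-type cells. The second had 47.2 to 67.9 against 57.2 to 119 units, and the third 38.6 to 60.15 against 43.0 to 123.

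**Figure D1:**
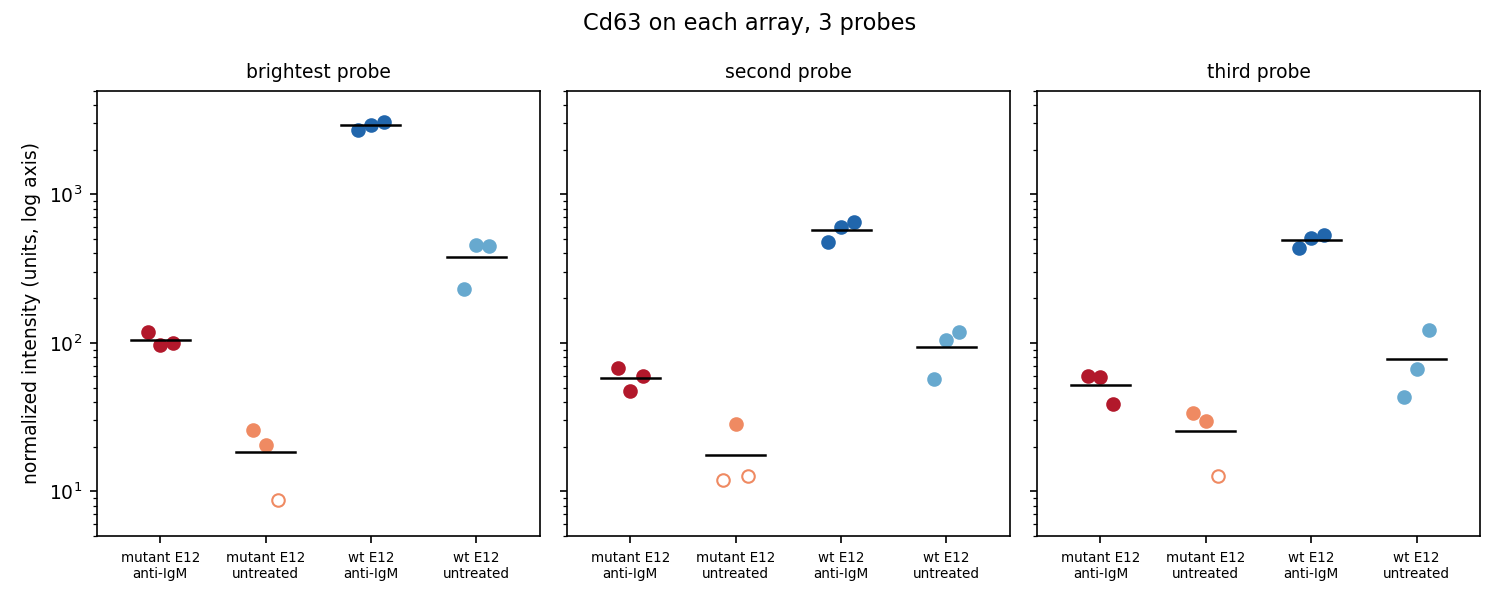
Normalized intensity (units, log axis) of the 3 Cd63 probes on each of the 12 arrays, in 4 groups of 3 arrays. Filled points are above the array's detection limit, open points are below it, and lines are group means; on every probe wild-type cells with anti-IgM stand highest, and open points occur in untreated mutant cells only.

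The untreated mutant arrays lay near the detection limit for Cd63, and the gap between its responses depended on the offset added before the logarithm. Without any offset, mean intensity with anti-IgM over untreated was 5.70 with mutant E12 and 7.66 with wild-type E12 for the brightest probe. For the second probe these ratios were 3.30 and 6.16, and for the third 2.07 and 6.37. The denominators with mutant E12 include 1, 2 and 1 arrays below the limit. As a difference of mean intensity, the brightest probe gained 86.75 units with mutant E12 and 2527 with wild-type E12. With an offset of 16 the difference of the responses was -1.10, and with that offset and no joint quantile step it was -0.76, and neither value was past the threshold. Replicate 1 of untreated wild-type E12 was the lowest of its group for Cd63. Without it, the wild-type response was 2.55 and the difference of the responses was -1.36.

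Cd9, a tetraspanin that marks marginal zone B cells, B1 cells and plasma cells in mice, had its lowest level in untreated wild-type cells. Its intensity was 1162, 1339.9 and 1098 units in mutant cells with anti-IgM, and 1149, 1293 and 1314 in untreated mutant cells. It was 1117, 973.9 and 875.2 in wild-type cells with anti-IgM, and 442.9, 454.1 and 525.35 in untreated wild-type cells. The untreated wild-type arrays lay below all others, while the remaining 3 groups were close together after the joint quantile step. In the deposited values, wild-type arrays with anti-IgM, at 722 to 897 units, also lay below all mutant arrays, at 1310 to 1628. The log2 difference of anti-IgM from untreated was -0.06 ± 0.13 with mutant E12 and 0.98 ± 0.13 with wild-type E12, and the mutant response minus the wild-type response was -1.04 ± 0.18. Untreated mutant cells had 2.49-fold the offset intensity of untreated wild-type cells, a log2 difference of 1.31 ± 0.13 (limma adjusted p = 3.2e-06). With anti-IgM the forms differed by 0.27 ± 0.13 and overlapped, which did not pass the test (adjusted p = 0.105).

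Tspan3, a widely expressed member of the family, was also lowest in untreated wild-type cells. Its log2 values were 9.30, 8.81 and 9.08 in mutant cells with anti-IgM, and 9.23, 9.02 and 8.99 in untreated mutant cells. In wild-type cells they were 8.92, 9.07 and 8.94 with anti-IgM, and 7.85, 8.24 and 8.53 untreated. Here too, after the joint quantile step, only the untreated wild-type arrays stood apart, below every other array. In the deposited intensities, wild-type arrays with anti-IgM, at 383 to 424 units, also lay below all mutant arrays, at 442.5 to 670. The anti-IgM difference was -0.01 ± 0.17 with mutant E12 and 0.77 ± 0.17 with wild-type E12. The difference of these responses, -0.79 ± 0.24, was not past the threshold, but was past it with a replicate block within each form. Without replicate 1 of untreated wild-type E12 the wild-type response was 0.59 and the difference of the responses was -0.61. Untreated mutant cells were higher than untreated wild-type cells by 0.87 ± 0.17 (adjusted p = 8.9e-04), and by 0.69 without that replicate. With anti-IgM the forms differed by 0.09 ± 0.17 (adjusted p = 0.713). A second Tspan3 probe was above the limit on 0 of 12 arrays.

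Cd81, a widely expressed tetraspanin that serves as an entry factor for hepatitis C virus in humans, was lower in wild-type cells with anti-IgM than in any other group. Its log2 values were 13.24, 13.31 and 12.92 in mutant cells with anti-IgM, and 13.17, 13.16 and 13.12 in untreated mutant cells. They were 12.50, 12.70 and 12.48 in wild-type cells with anti-IgM, and 13.50, 12.85 and 13.03 in untreated wild-type cells. The anti-IgM difference was 0.01 ± 0.16 with mutant E12 and -0.57 ± 0.16 with wild-type E12. As a description only, the wild-type value was past the threshold. It was not past it without replicate 1 of untreated wild-type E12, where it was -0.38, nor without replicate 1 or 3 of wild-type E12 with anti-IgM. The difference of the responses was 0.57 ± 0.22, not past the threshold. With anti-IgM, mutant cells were higher than wild-type cells by 0.60 ± 0.16 (adjusted p = 0.0073), and untreated the forms differed by 0.02 ± 0.16 (adjusted p = 0.921).

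Neither Cd37 nor Cd82 had an anti-IgM difference past the threshold in either form. Cd37, a tetraspanin of mature B cells that restrains IL-6 signalling in mice, had log2 values of 10.34, 9.95 and 10.19 in mutant cells with anti-IgM and 10.47, 10.24 and 9.85 in untreated mutant cells. In wild-type cells they were 10.80, 11.22 and 11.06 with anti-IgM and 10.51, 11.46 and 11.59 untreated. The anti-IgM groups overlapped within both forms, with differences of -0.03 ± 0.24 with mutant E12 and -0.16 ± 0.24 with wild-type E12. Mutant cells were lower than wild-type cells, at -0.86 ± 0.24 with anti-IgM (adjusted p = 0.0101) and -0.99 ± 0.24 untreated (adjusted p = 0.0044). Replicate 1 was the lowest untreated wild-type array by a wide margin. Without it the wild-type response was -0.49 and the untreated difference between forms was -1.33. Cd82, known as a suppressor of metastasis, averaged 10.73 ± 0.09 in mutant cells with anti-IgM, 10.44 ± 0.18 in untreated mutant cells, 10.62 ± 0.16 in wild-type cells with anti-IgM and 10.25 ± 0.68 in untreated wild-type cells (SD, n = 3 each). The large SD of the last group came from 9.48 in replicate 1, against 10.51 and 10.77 in the others. The wild-type response of Cd82 was 0.37 ± 0.24 with that array and -0.02 without it. The forms of E12 did not differ past the threshold for Cd82, with 0.11 ± 0.24 with anti-IgM (adjusted p = 0.750) and 0.19 ± 0.24 untreated (adjusted p = 0.555), or -0.20 untreated without that array.

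Cd53, a tetraspanin largely restricted to leukocytes, was lower with mutant E12 on every array. Its log2 values were 10.60, 10.49 and 11.00 in mutant cells with anti-IgM, and 10.18, 10.25 and 10.23 in untreated mutant cells. They were 12.36, 12.30 and 12.25 in wild-type cells with anti-IgM, and 12.01, 11.79 and 12.02 in untreated wild-type cells. Mutant and wild-type arrays did not overlap, and within each form the anti-IgM arrays lay above the untreated ones. Mutant cells differed from wild-type cells by -1.61 ± 0.13 with anti-IgM (adjusted p = 8.0e-07) and by -1.72 ± 0.13 untreated (adjusted p = 4.2e-07). The anti-IgM difference was 0.48 ± 0.13 with mutant E12 and 0.36 ± 0.13 with wild-type E12, neither past the threshold (the wild-type value was with a replicate block within each form), and these responses differed by 0.11 ± 0.19. A second, dimmer Cd53 probe was above the limit on 3 of 3 mutant arrays with anti-IgM and on 0 of 3 untreated mutant arrays. On the wild-type arrays it was above the limit on 3 of 3 in both groups.

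Tspan31, whose human gene is amplified in sarcomas, was higher with mutant E12. It averaged 10.50 ± 0.07 in mutant cells with anti-IgM, 10.46 ± 0.19 in untreated mutant cells, 10.01 ± 0.05 in wild-type cells with anti-IgM and 10.09 ± 0.22 in untreated wild-type cells (SD, n = 3 each). The forms differed by 0.49 ± 0.13 with anti-IgM (adjusted p = 0.0080), where they did not overlap, and by 0.36 ± 0.13 untreated (adjusted p = 0.0409), where they did. The untreated call was past the threshold in 13 of 24 alternative settings, and without replicate 1 of untreated wild-type E12 the difference was 0.25. The second Tspan31 probe gave 0.50 ± 0.15 with anti-IgM (adjusted p = 0.0162) and 0.67 ± 0.15 untreated (adjusted p = 0.0029), with no overlap in untreated cells. The anti-IgM difference was 0.05 ± 0.13 with mutant E12 and -0.08 ± 0.13 with wild-type E12. Cd151, a partner of laminin-binding integrins, was dim, with log2 values between 6.96 and 7.79 on its brightest probe. On each of its 3 probes the groups overlapped in every comparison, and no difference between the forms passed the test (adjusted p from 0.275 to 0.933). The Tspan13 probe gave log2 values between 5.73 and 6.08.

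**Figure D2:**
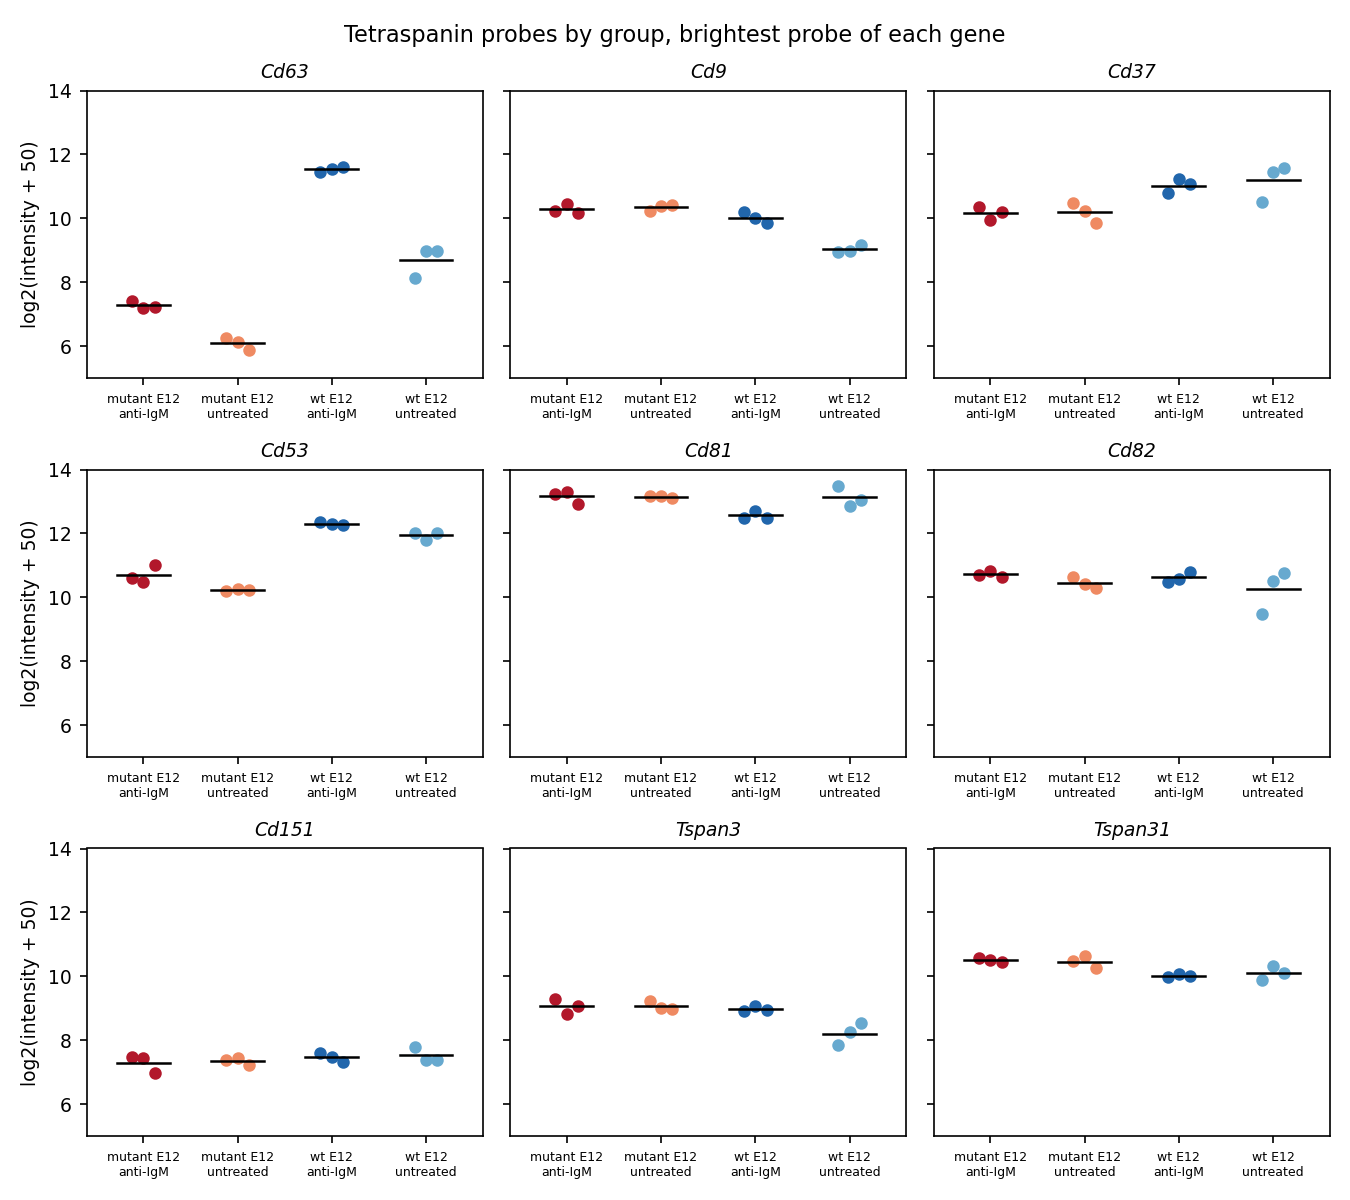
Log2(intensity + 50) of the brightest probe of the 9 tested tetraspanins on each array, in groups of 3 arrays; lines are group means. Cd63 spans 5.88 to 11.60, Cd53 is lower on all mutant arrays, and the untreated wild-type arrays are lowest for Cd9 and Tspan3.

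With wild-type E12, anti-IgM gave values past the threshold for 4 of the 9 tested tetraspanins, Cd63, Cd9 and Tspan3 higher and Cd81 lower. Among all 10050 genes, 15.1% were called higher and 16.2% lower in that comparison. The groups did not overlap for 5 of the 9, against 50.3% of all genes. Without replicate 1 of untreated wild-type E12, 3 of the 9 were past the threshold, beside 2854 of all 10050 genes. With mutant E12, Cd63 alone was past the threshold, higher and on its brightest probe only, where 0.189% of all genes were called higher and 0.0398% lower. That value was no longer past it without replicate 1 or 3 of mutant E12 with anti-IgM, replicate 2 or 3 of untreated mutant E12, or replicate 2 or 3 of wild-type E12 with anti-IgM, each left out singly, or with an offset of 100. The groups did not overlap for 3 of the 9 (Cd63, Cd53 and Cd82), against 12.1% of all genes. For the difference of the responses, 2 of the 9 were past the threshold, Cd63 and Cd9, both with the lower response in the mutant form. Among all genes 3.48% were called higher and 3.46% lower. The median response of the 9 genes was 0.01 with mutant E12 and 0.36 with wild-type E12, beside -0.01 and -0.02 over all genes. Since the genes were chosen with these responses known, nothing is read from these counts.

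**Figure D3:**
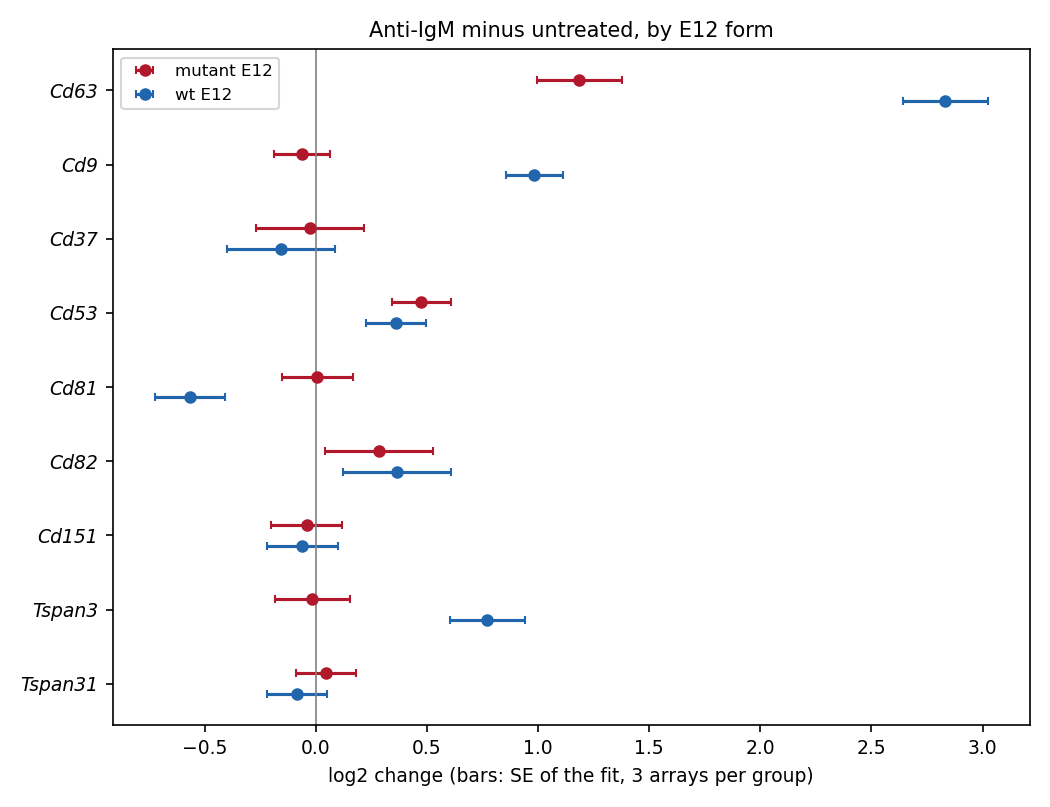
Log2 difference of anti-IgM minus untreated for the 9 tested tetraspanins, with mutant E12 and wild-type E12 (bars: SE of the fit, 3 arrays per group). Cd63 has 1.19 and 2.83, Cd9 -0.06 and 0.98, Tspan3 -0.01 and 0.77, and Cd81 0.01 and -0.57; the other pairs differ by at most 0.13.

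The comparison of the E12 forms was tested for the 8 measured tetraspanins other than Cd63. In cells with anti-IgM, 4 of the 8 passed: Cd81 and Tspan31 were higher and Cd37 and Cd53 lower with mutant E12. Among all genes 21.3% were called higher and 22.2% lower there, so the share of tetraspanins was near that of all genes. In untreated cells 5 of the 8 passed: Cd9, Tspan3 and Tspan31 were higher and Cd37 and Cd53 lower. All genes gave 20.4% higher and 22.2% lower. The groups did not overlap for 5 of the 9 tested genes, Cd63 included, both with anti-IgM (58.1% of all genes) and untreated (49.3%). Without replicate 1 of untreated wild-type E12, 4 of the 8 passed in untreated cells, beside 3957 of all 10050 genes. Markers given above moved with the same contrast. The plasma cell sums were higher, and the B cell sums, Adgre1, Lyz1, Lyz2 and Siglech lower, on all mutant arrays than on any wild-type array. Of the B cell markers Blk and Cd22 were lower in that way, while Cd79b and Ms4a1 overlapped between the forms. Mpeg1, Thy1, Xcr1, Zbtb46 and Kit had higher medians with mutant E12, and Prf1, Gp9 and the macrophage marker Cd14 lower ones, all with overlap.

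Several of these calls depended on scaling. When the deposited values were used with no joint quantile step, the median of all genes was 0.11 with anti-IgM and 0.13 untreated. With the step it was -0.0053 and 0.0095. The values that follow the counts are relative to the median without the step. Among all genes 31.7% were then called higher and 15.3% lower with anti-IgM, and 32.2% and 16.1% untreated. Of the 8 tetraspanins 4 were higher and 1 lower with anti-IgM (5 and 1 with arrays also centred), and 5 were higher and 1 lower untreated. Cd53 remained lower, at -0.89 with anti-IgM and -1.09 untreated, and Cd63 at -3.90 and -2.60. Cd9 was higher by 0.70 and 1.63, so that its difference with anti-IgM now passed the test (adjusted p = 1.2e-04, before the median was subtracted). Cd81 was higher by 1.45 and 0.88, and in untreated cells it now passed (adjusted p = 1.2e-04). Cd82 was higher by 0.66 and 0.66 and passed in both (adjusted p = 0.0119 and 0.0107). Tspan31 was higher by 0.94 and 0.81. Tspan3 was higher by 0.31 with anti-IgM, where it did not pass (adjusted p = 0.0533) unless arrays were also centred (adjusted p = 0.0468), and by 1.01 untreated. Cd37 was lower, at -0.34 and -0.46 and no longer passed in either (adjusted p = 0.465 and 0.267). No tested tetraspanin of the 9 changed sign between these scalings in a comparison of the forms.

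**Figure D4:**
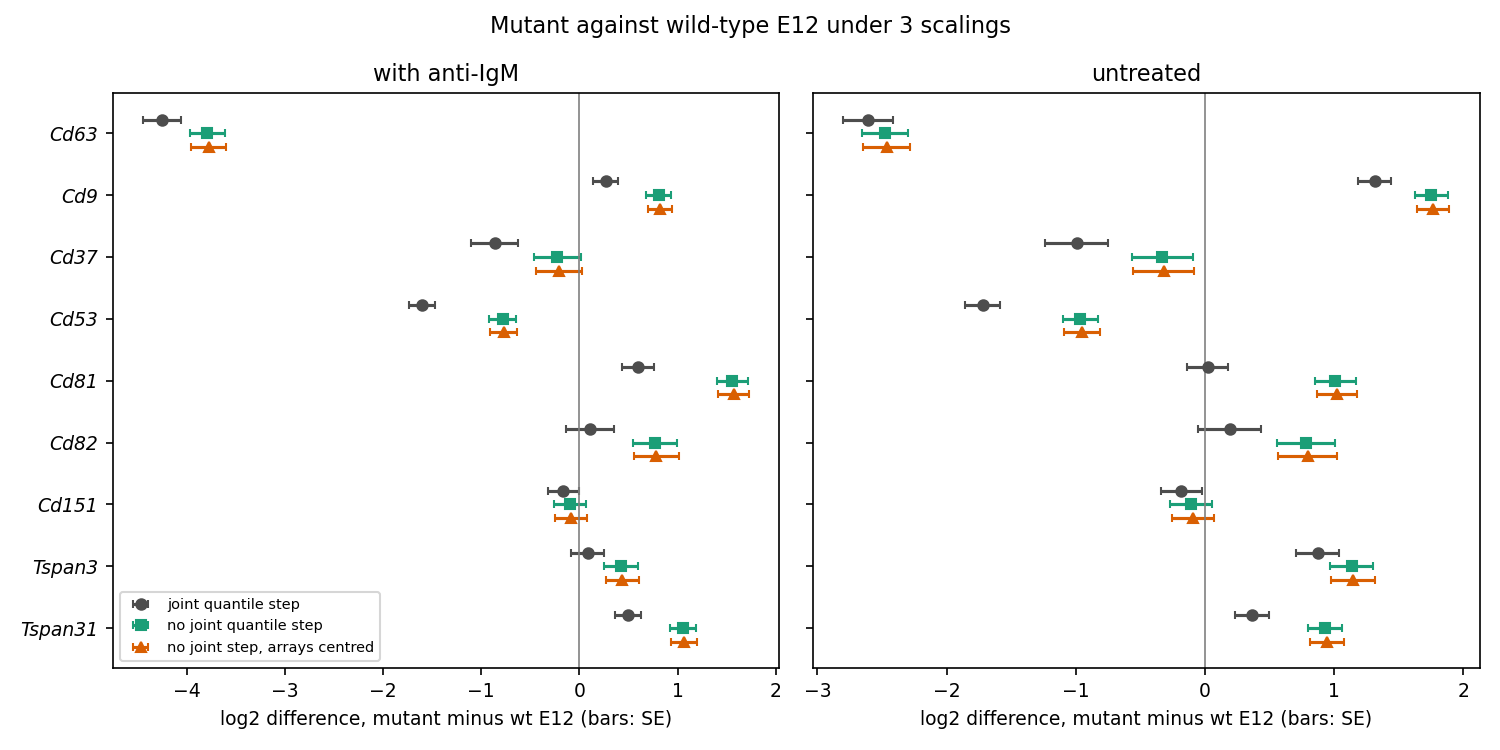
Log2 difference of mutant minus wild-type E12 for the 9 tested tetraspanins, with anti-IgM and untreated, under 3 scalings of the arrays (bars: SE). Cd63 and Cd53 are below 0 and Cd9 and Tspan31 above 0 under all 3, while Cd37 lies closer to 0 and Cd81 and Cd82 farther above 0 without the joint quantile step.

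Of 22 further tetraspanin genes listed, 20 had a named probe and 9 were tested. This list, and those of associated proteins and of late endosomal and lysosomal genes below, were chosen with earlier results of these data known. Their p-values therefore describe these arrays and are no independent support. With wild-type E12, anti-IgM raised 1 of the 9, Tspan14 (0.46 ± 0.14, adjusted p = 0.0232), and lowered 4, beside 15.1% and 16.2% of all genes. Tspan32, which restrains T cell proliferation in mice, averaged 9.04 ± 0.10 in mutant cells with anti-IgM, 9.25 ± 0.17 in untreated mutant cells, 8.33 ± 0.13 in wild-type cells with anti-IgM and 9.49 ± 0.13 in untreated wild-type cells (SD, n = 3 each). It fell by 1.16 ± 0.13 with wild-type E12 (adjusted p = 1.4e-05), while the mutant difference of -0.21 ± 0.13 did not pass (adjusted p = 0.719). The response with mutant E12 minus that with wild-type E12 was 0.95 ± 0.18 (adjusted p = 0.0072). Tspan17, a partner of the protease Adam10, fell by 0.74 ± 0.12 with wild-type E12 (adjusted p = 2.6e-04). With mutant E12 it differed by -0.32 ± 0.12 (adjusted p = 0.356), and its responses did not differ past the threshold (adjusted p = 0.147). Tspan2 fell by 0.48 ± 0.13 (adjusted p = 0.0123), and the fourth was Rom1, a tetraspanin of photoreceptor discs. With mutant E12, 0 of the 9 passed in limma, and 1 had an unadjusted p under 0.05. The Tspan14 call was lost in 4 of 25 alternatives and the difference of the Tspan32 responses in 1 of 24. Leaving out replicate 1 or 2 of wild-type E12 with anti-IgM, or replicate 2 of untreated wild-type E12, left 3 of the 9 called with wild-type E12. Of all 10050 genes 2296, 2368 and 2601 were then called.

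Between the forms, 4 of these 9 were higher and 1 lower with mutant E12 in cells with anti-IgM, beside 21.3% and 22.2% of all genes. Tspan17 was higher by 0.86 ± 0.12 (adjusted p = 4.7e-05), Rom1 by 0.75 ± 0.16 (adjusted p = 0.0015) and Tspan32 by 0.72 ± 0.13 (adjusted p = 4.2e-04). Tspan14, another partner of Adam10, was lower, at -0.46 ± 0.14 (adjusted p = 0.0173), but its sign turned without the joint quantile step, to 0.072. Without replicate 3 of mutant E12 with anti-IgM, or replicate 1 of wild-type E12 with anti-IgM, 3 of the 9 were called. Of all 10050 genes 4072 and 3631 were then called. The fourth to be higher was Tspan4, above the limit on 2 of 3 mutant and 0 of 3 wild-type arrays with anti-IgM. It was at least 1.17-fold higher there, taking as the floor of each wild-type array its lowest probe above the limit. The call itself used values without that floor. In untreated cells 3 were higher and 0 lower, beside 20.4% and 22.2% of all genes. Tspan4 was higher by 0.52 ± 0.14, but was above the limit on only 1 of 3 wild-type arrays, against 3 of 3 mutant arrays. On the wild-type arrays alone it would not have passed the filter, so no p is given for it in either comparison. The others were Rom1 by 0.47 ± 0.16 (adjusted p = 0.0281, lost in 5 of 24 alternatives) and Tspan17 by 0.43 ± 0.12 (adjusted p = 0.0079).

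**Figure D5:**
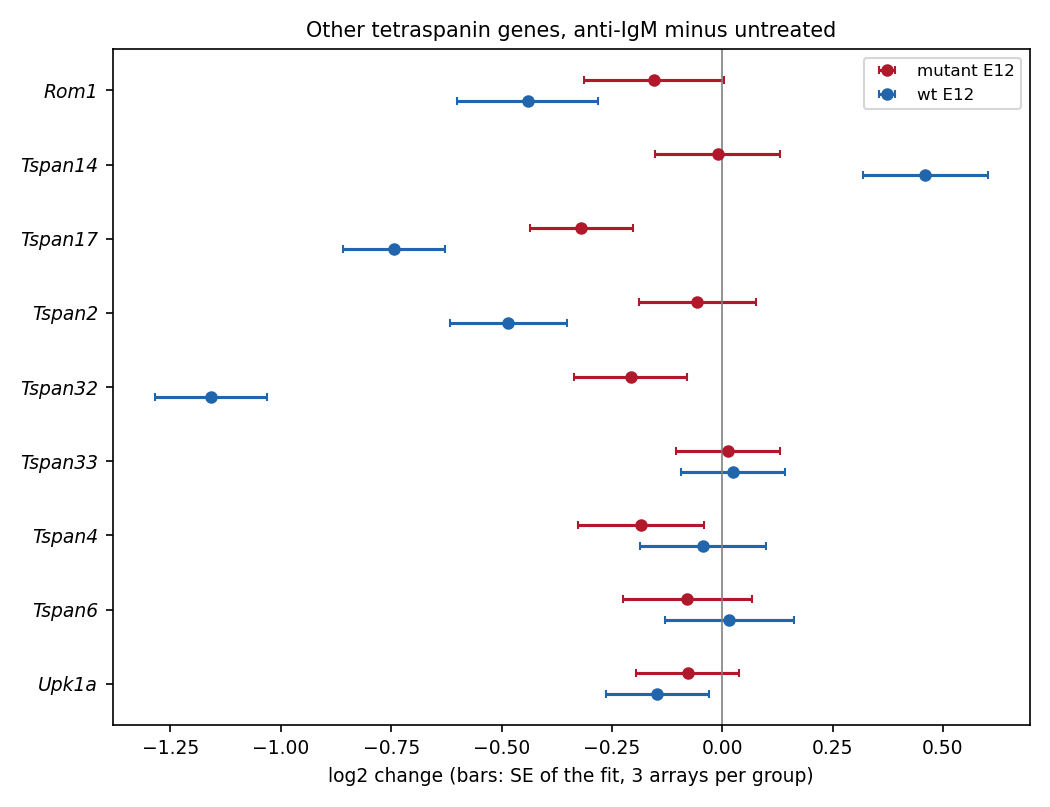
Log2 difference of anti-IgM minus untreated for the 9 further tested tetraspanin genes, with mutant E12 and wild-type E12 (bars: SE of the fit, 3 arrays per group). Tspan32, at -0.21 and -1.16, has the widest gap between the forms, and all mutant values lie between -0.32 and 0.01.

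Proteins that associate with tetraspanins were represented by 16 listed genes, 10 of them tested. With wild-type E12, anti-IgM raised 2 and lowered 1, beside 15.1% and 16.2% of all genes. It raised Ifitm1, an interferon-induced protein found with Cd81 in human B cells, by 0.65 ± 0.23 (adjusted p = 0.0483, lost in 15 of 25 alternatives), and the adhesion ligand Icam1 by 0.56 ± 0.10 (adjusted p = 0.0010). The integrin chain Itgb7 fell by 0.90 ± 0.15 (adjusted p = 4.7e-04). With mutant E12, 0 of the 10 passed in limma and 0 had an unadjusted p under 0.05, with Itgb7 at -0.17 ± 0.15 (adjusted p = 0.875) and Icam1 at -0.07 ± 0.10 (adjusted p = 0.939). The response with mutant E12 minus that with wild-type E12 was -0.63 ± 0.15 for Icam1 (adjusted p = 0.0198, lost in 4 of 24 alternatives) and 0.73 ± 0.22 for Itgb7 (adjusted p = 0.0559), which passed with either replicate block. Icam1 averaged 9.30 ± 0.06 in mutant cells with anti-IgM, 9.37 ± 0.10 in untreated mutant cells, 10.14 ± 0.03 in wild-type cells with anti-IgM and 9.58 ± 0.03 in untreated wild-type cells (SD, n = 3 each). Complement receptor 2, Cr2, which shares a complex with Cd81, was above the limit on 0 of 6 mutant and 6 of 6 wild-type arrays, and passed the filter only through the wild-type arrays. Its log2 means were 5.63 in mutant and 6.38 in wild-type cells with anti-IgM, and 5.54 in mutant and 6.21 in wild-type untreated cells. With the same kind of floor it was at least 1.26-fold lower with mutant E12 with anti-IgM and at least 1.12-fold lower untreated. Its calls used mutant values below the limit and no floor, so no p is given for Cr2. The integrin chain Itga4 was higher by 1.23 ± 0.21 with anti-IgM (adjusted p = 3.0e-04), where 1 of 3 wild-type arrays was above the limit, and by 0.89 ± 0.21 untreated (adjusted p = 0.0035). Itgb7 was higher by 1.17 ± 0.15 (adjusted p = 3.3e-05) and 0.43 ± 0.15 (adjusted p = 0.0327, lost in 4 of 24 alternatives). Icam1 was lower with anti-IgM, at -0.84 ± 0.10 (adjusted p = 2.2e-05), or -0.35 without the joint quantile step. Ifitm1 was higher untreated, by 0.83 ± 0.23 (adjusted p = 0.0110). In all, 2 were higher and 2 lower with anti-IgM, beside 21.3% and 22.2% of all genes, and 3 were higher and 1 lower untreated, beside 20.4% and 22.2%. Cr2 is counted as lower in both.

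The late endosomal and lysosomal compartment in which Cd63 resides was followed through 28 listed genes, 25 of them tested. With wild-type E12, anti-IgM raised 5 and lowered 3, beside 15.1% and 16.2% of all genes. The cathepsin Ctsz rose by 1.08 ± 0.22 (adjusted p = 0.0021), the progranulin gene Grn by 0.81 ± 0.16 (adjusted p = 0.0013) and the acid glucosidase Gaa by 0.73 ± 0.14 (adjusted p = 0.0016). The protease Lgmn fell by 0.69 ± 0.14 (adjusted p = 0.0016). With mutant E12, 0 of the 25 passed in limma, and 1 had an unadjusted p under 0.05. Ctsz had the mutant difference with the smallest p, 0.70 ± 0.22 (adjusted p = 0.274), and it passed without replicate 1 of untreated wild-type E12 (adjusted p = 0.0284) and with a replicate block within each form (adjusted p = 0.0310). The cathepsin Ctsb had 0.25 ± 0.18 (adjusted p = 0.785). For the difference of the responses 0 of the 25 passed and 4 had an unadjusted p under 0.05, with Grn at -0.65 ± 0.22 (adjusted p = 0.100, but 0.0176 with the block within each form) and Scarb2, a lysosomal membrane receptor, at 0.49 ± 0.15 (adjusted p = 0.0773). The median over the 25 genes was 0.03 with mutant E12 and -0.0035 with wild-type E12. Between the forms, 3 were higher and 8 lower with anti-IgM, beside 21.3% and 22.2% of all genes, and 2 were higher and 7 lower untreated, beside 20.4% and 22.2%. This balance turned with the scaling. Without the joint quantile step 8 were higher and 5 lower with anti-IgM (10 and 5 with arrays also centred), and 8 were higher and 3 lower untreated (8 and 2 centred). All genes then gave 31.7% and 15.3% with anti-IgM, and 32.2% and 16.1% untreated. Grn was lower with mutant E12, at -2.05 ± 0.16 with anti-IgM (adjusted p = 3.7e-07) and -1.40 ± 0.16 untreated (adjusted p = 1.1e-05). The peptidase Tpp1 was lower, at -1.06 ± 0.16 (adjusted p = 1.2e-04) and -1.33 ± 0.16 (adjusted p = 2.2e-05). The glucuronidase Gusb was higher by 0.93 ± 0.17 (adjusted p = 5.5e-04) and 1.13 ± 0.17 (adjusted p = 1.4e-04). The small GTPase Rab7, which acts on late endosomes, was lower, at -1.11 ± 0.14 (adjusted p = 2.3e-05) and -0.89 ± 0.14 (adjusted p = 1.7e-04), but at -0.39 and -0.24 without the joint step, where the untreated value did not pass (adjusted p = 0.164). Rab27a, a GTPase of exosome and granule release, was higher by 1.13 ± 0.21 (adjusted p = 6.6e-04) and 0.79 ± 0.21 (adjusted p = 0.0081). Grn, Tpp1, Gusb and Rab27a kept their direction and call under both scalings in the comparisons in which each was among the 4 largest called differences of the list.

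Across the 12 arrays, the tested genes whose log2 values had the highest Pearson correlation with Cd63 were Myo1e (0.994), Psme3 (0.993), Eno2 (0.992), Pprc1 (0.988) and Pdxk (0.988). They encode a myosin motor, a proteasome activator, a glycolytic enzyme, a transcriptional coactivator and a vitamin B6 kinase. Eno2, for instance, averaged 6.99 in mutant cells with anti-IgM, 6.44 in untreated mutant cells, 9.63 in wild-type cells with anti-IgM and 8.04 in untreated wild-type cells. Among the tetraspanins, Cd53 had 0.914 and Cd37 0.707 with Cd63, and Cd81 had -0.788 and Tspan31 -0.724. These values describe 12 points that fall into 4 groups and 2 sets with different deposited medians.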

How the data were processed

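RNA of sorted mouse B cells was measured on 12 Illumina bead arrays, grouped by the sample titles. The values used were deposited intensities on a linear scale, already corrected for background and normalized by the authors, which was read from the values; the software is not given in the sources used here. Another table holds 12 columns whose names match no label, and they were not used. The planned neqc step needs raw signals with detection p-values. Instead, 1 quantile normalization was run over the 12 arrays before log2(value + 50), which understates changes of dim probes. Each array's detection limit came from its values below 0, at p 0.01, and a probe had to pass on at least 3 arrays. Of 45281 probes, 34885 had 1 symbol, 18 several and 10378 none, and the probe with the highest mean stood for a gene. Groups were compared in R 4.3.3 with limma 3.58.1 (lmFit, eBayes, two-sided; 8 residual and 6.25 prior degrees of freedom). Benjamini-Hochberg adjustment ran over 10050 genes in each of 5 comparisons, at a threshold of 0.05. The fit was tested on simulated data. The number of arrays limits the precision.

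The members, the 3 gene lists and the marker lists were chosen with earlier results of these data known. Named were all members, up to 4 called genes per list and comparison by size of change (2 by p where none was called), without the mutant response of Cr2, below the limit in both groups, and with both comparisons of the forms for some genes named in either, Tcf3, and the 5 genes most correlated with Cd63. Replicate numbers in the titles were checked as pairs. In wild-type arrays the deviations of same-numbered arrays correlated at 0.177 to 0.289 in all 3 pairs, and 6 of 6 arrays correlated best with their own number. In mutant arrays the range was -0.05 to 0.61, and 4 of 6 arrays correlated best with their own number. Alternatives covered scaling, offset, filter, probe level, array weights, replicate blocks and leaving out arrays. Promoter windows came from RefSeq.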

Additional observations from a re-analysis of the deposited data

Results flagged for a closer look

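For Icam1 and Tspan32 the anti-IgM response with mutant E12 differed from that with wild-type E12 in the interaction term of the fit across all genes. Both genes came from lists chosen with earlier results of these data known, so their p-values are no independent support. The difference was -0.63 ± 0.15 (SE) for Icam1, with responses of -0.07 with mutant and 0.56 with wild-type E12 (limma adjusted p = 0.0198). It was lost with offset 16, with or without the joint quantile step, and without replicate 2 or 3 of wild-type E12 with anti-IgM. Tspan32 had 0.95 ± 0.18, with -0.21 with mutant and -1.16 with wild-type E12 (adjusted p = 0.0072), lost with offset 16 and no joint step. Cd63 and Cd9 belong to the comparison on which the tetraspanins were chosen, so their differences are descriptions with no p. For Cd63 the difference was -1.65 ± 0.27, with 1.19 with mutant and 2.83 with wild-type E12, and it was not past the threshold with offset 16, with or without the joint step. For Cd9 it was -1.04 ± 0.18, with -0.06 with mutant and 0.98 with wild-type E12. The untreated wild-type arrays enter every one of these values.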

How the results depend on the processing

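For Cd63, the response with wild-type E12 was 2.54 with no joint quantile step, also with arrays centred, and 2.55 to 2.98 when 1 array at a time was left out. The response with mutant E12 was 1.84 with offset 16, 1.49 with offset 30, 0.79 with offset 100, 1.90 with offset 16 and no joint step, and 1.08 to 1.27 without 1 array. The difference of the responses was -1.31 with no joint step (centred or not), -1.10 with offset 16, -0.76 with both changes, and -1.79 to -1.36 without 1 array. Offset 30, and offset 16 with no joint step, were added after the data had been seen. A filter of detection on all 12 arrays gives no Cd63 value. With that filter 0 members were called in the mutant response, 1 in the difference of the responses and 2 partners between the forms untreated, since Cd63 and other dim genes are then left out. Of all 7418 genes then tested, 16, 639 and 3556 were called. Members called in the mutant response were 0 with offset 100, 2 with array weights and 0 to 1 without 1 array. Of all 10050 genes 22, 717 and 2 to 57 were called. In the difference, 1 member was called with offset 16, with or without the joint step, beside 463 and 190 of all genes. Further tetraspanins called untreated were 5 with no filter, beside 4159 of all 19057 genes. Array weights called 1 further tetraspanin in the mutant response, beside 717 of all 10050 genes. Between the forms untreated they called 7 of 10 partners and 14 of 25 endolysosomal genes, beside 6106 of all genes. Endolysosomal genes called in the wild-type response were 5 with offset 16 and no joint step, beside 2584 of all genes. Leaving out 1 array gave 3 to 5 further tetraspanins called in the wild-type response and 3 to 5 between the forms with anti-IgM. All genes gave 2296 to 3365 and 3574 to 4728 calls. Tspan14 turned sign between the forms with anti-IgM, to 0.072 with no joint step, 0.086 centred and 0.0745 with offset 16 as well. The replicate block left members called at 4, 1 and 2 in the wild-type response, the mutant response and their difference. Of all 10050 genes it called 3145, 25 and 703, against 3148, 23 and 698 without it. Nested in the form, the block gave 5, 1 and 3 members. Within the forms, 6 of 6 wild-type and 4 of 6 mutant arrays had correlated best with their own number. Nested, it called 3929, 215 and 1402 of all genes, so calls rose over all genes as well. In the difference of the responses the block called 2 partners (Icam1 and Itgb7) where 1 was called without it, and 1 endolysosomal gene (Grn) where 0 were; nested in the form it called 2 and 3. The nested block also called 1 endolysosomal gene (Ctsz) in the mutant response, against 0, and it moved no other count of calls in these lists by over 1.5 times. For single genes, 1946 values kept direction and side of the threshold, 60 lost the call, 34 gained it and 3 reversed. The causes of the other changes were not tested.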
